A study of Mus musculus with 19 samples.

Results

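The 10 genes Jak1, Jak3, Stat3, Stat5a, Stat5b, Cish, Socs1, Socs2, Socs3 and Pim1 encode the intracellular part of JAK-STAT cytokine signalling, from receptor kinases to feedback inhibitors. They were chosen by name: every non-control probe whose gene name in the array files equals 1 of them was taken, which gave 16 probes for 10 of the 34797 genes named on the array. Expression was measured on 19 one-colour Agilent arrays of CD4 T cells from spleen and lymph nodes of adult female C57Bl/6 mice that carry GFP as a reporter of IL-2 and RFP as a reporter of Foxp3, genotype Tg IL-2-GFP x FOXP3mRFP. The 4 populations were GFP+RFP+ cells (4 arrays, replicates 1, 3, 4 and 5), GFP-RFP+ cells (5 arrays), GFP+RFP- cells (5 arrays) and GFP-RFP- cells (5 arrays), with no treatment named and the same transgenes in all. The labels call the RFP+ populations regulatory in 1 field and conventional in another, so the populations are named here by reporter. They do not say whether replicates came from separate mice, so the p-values cover only sample-to-sample spread, part of which can be technical. In sorted bulk samples, fewer cells of a type and less RNA per cell cannot be told apart.

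Cytokine receptors of the common gamma chain family, the IL-2 receptor among them, carry JAK1 and JAK3, tyrosine kinases that phosphorylate the receptor tails and the STAT proteins bound there. Phosphorylated STAT5A and STAT5B enter the nucleus and, in regulatory T cells, bind the Foxp3 gene and maintain its transcription. STAT5 also switches on its own brakes, CISH and the SOCS proteins, and survival genes such as the kinase gene Pim1.

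As scaled here, no member passed the test in any comparison of the 4 populations, and only Stat5a and Stat5b did so under any other setting. The pair closest to it was Stat5b and Stat5a in GFP-RFP+ against GFP-RFP- cells. Stat5b averaged -8.69 ± 1.78 in GFP-RFP+ cells and -3.35 ± 1.42 in GFP-RFP- cells (SD, n = 5 each), a difference of -5.35 ± 1.35 (SE) with an adjusted p of 0.052. Values are log2 signals relative to each array's 75th percentile over 6621 probes detected on every array, so that 0 is that percentile, and p-values are from limma with Benjamini-Hochberg adjustment over 20595 genes. A gene was called at an adjusted p under 0.05.

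All arrays carried T cell transcripts: between 7 and 10 of 10 T cell marker genes were well above background on each, and Cd4 was on all 19. Foxp3 averaged -6.13 ± 0.84 in GFP+RFP+ cells (n = 4), -5.35 ± 3.32 in GFP-RFP+ cells, -7.64 ± 0.61 in GFP+RFP- cells and -7.89 ± 0.49 in GFP-RFP- cells (SD, n = 5 each), and its difference passed neither Foxp3 reporter comparison (adjusted p = 0.187 without GFP and 0.521 with it). The share of probes well above background ran from 26.1% to 38.1% on GFP+RFP+ arrays, from 22% to 39.4% on GFP-RFP+ arrays, from 30.2% to 41.1% on GFP+RFP- arrays and from 37.8% to 44.9% on GFP-RFP- arrays. Replicates of a group correlated at r = 0.546 to 0.75 over the 28065 probes kept, and no pair of arrays looked like 1 library deposited more than once.

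Detection of the members also differed between populations. They were well above background in 62.5% of gene and array pairs in GFP+RFP+ cells (25 of 40), 56% in GFP-RFP+ cells (28 of 50), 72% in GFP+RFP- cells (36 of 50) and 90% in GFP-RFP- cells (45 of 50). Over all tested genes the shares were 63.2%, 59.3%, 71.6% and 77.4% in the same order of populations. Between 5 and 8 of the 10 members were detected on a GFP+RFP+ array, between 4 and 9 on a GFP-RFP+ array, between 4 and 10 on a GFP+RFP- array and between 8 and 10 on a GFP-RFP- array. With each array's detection rate as a covariate, the Stat5b difference was -3.95 (adjusted p = 0.566) and the Stat5a difference -6.01 (adjusted p = 0.551).

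**Figure D1:**
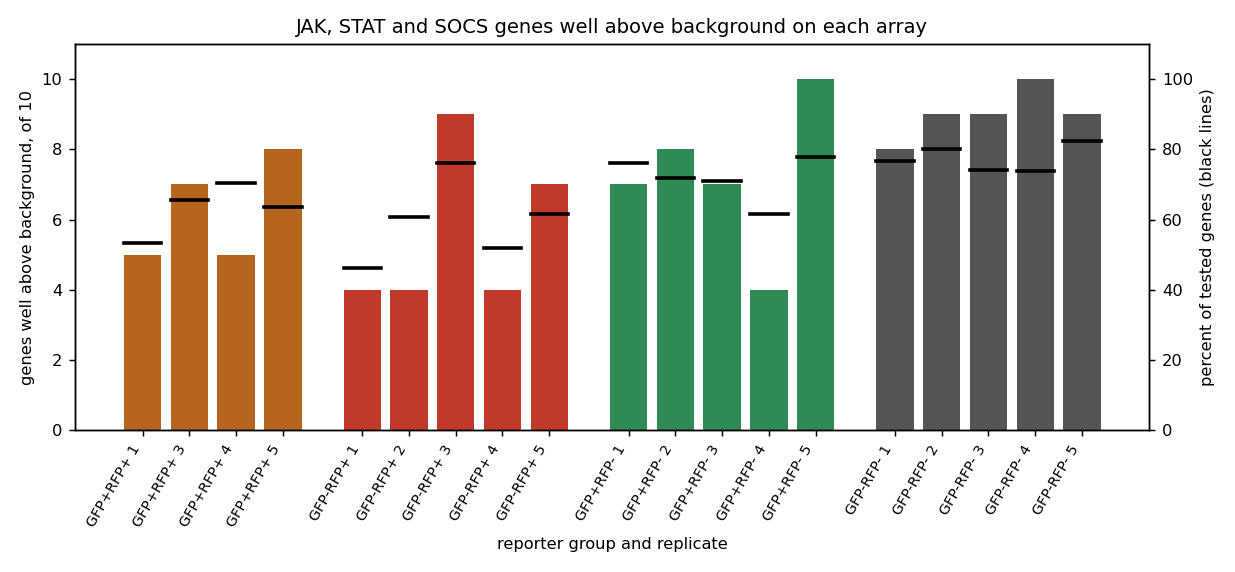
Bars give the number of the 10 genes well above background on each array (left axis) and black lines the percent of all tested genes well above background on the same array (right axis, scaled so that 10 genes equal 100%). The GFP-RFP- arrays hold 8 to 10 genes and the GFP-RFP+ arrays 4 to 9.

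In GFP-RFP+ against GFP-RFP- cells, 0 of 10 members were called, where 1.7% of all tested genes were. At an unadjusted p under 0.05 there were 4 members (Jak1, Stat5a, Stat5b and Pim1), against 22.6% of all genes. The fitted difference was below 0 for 8 members and above 0 for Jak3 and Cish, with a median of -2.04 beside -0.29 over all genes, of which 57.1% were below 0. Scaling moved this count: 6 of 10 members were below 0 with the percentile over all probes, with the median, with quantile normalization, with normexp and in the authors' series table, settings that moved the median of all genes up by 0.52 to 1.31. Relative to the median of all genes, the differences were -5.06 for Stat5b, -5.67 for Stat5a, -6.13 for Pim1 and -4.16 for Jak1.

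The same Foxp3 reporter comparison among GFP+ cells also gave no call. In GFP+RFP+ against GFP+RFP- cells, 0 of 10 members were called (0.204% of all genes) and 0 of 10 had an unadjusted p under 0.05 (17.4% of all genes). The differences were above 0 for 6 members and below 0 for 4 (3 to 5 under those other scalings), with a median of 0.39 beside 0.22 over all genes, of which 44.1% were below 0. The smallest adjusted p was 0.389, for Cish.

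The IL-2 reporter comparisons called no member either. In GFP+RFP- against GFP-RFP- cells, 0 of 10 were called (0.00971% of all genes), 1 had an unadjusted p under 0.05 (Stat5a, against 5.16% of all genes), and 9 differences were below 0 (7 or 8 under the other scalings), with a median of -1.18 beside -0.03 over all genes, of which 51.4% were below 0. Between GFP+RFP+ and GFP-RFP+ cells, 0 of 10 were called (0.00486% of all genes), 1 had an unadjusted p under 0.05 (Stat5a, against 5.41%), and 1 difference was below 0 (2 to 5 under the other scalings), with a median of 0.85 beside 0.41 over all genes, of which 30.8% were below 0. In the difference between both Foxp3 reporter differences (with GFP minus without), 0 of 10 were called (0.00971%), 1 had an unadjusted p under 0.05 (Stat5a, against 4.92%), and the median was 3.37 beside 0.40. These comparisons share arrays, so their counts are not independent.

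**Figure D2:**
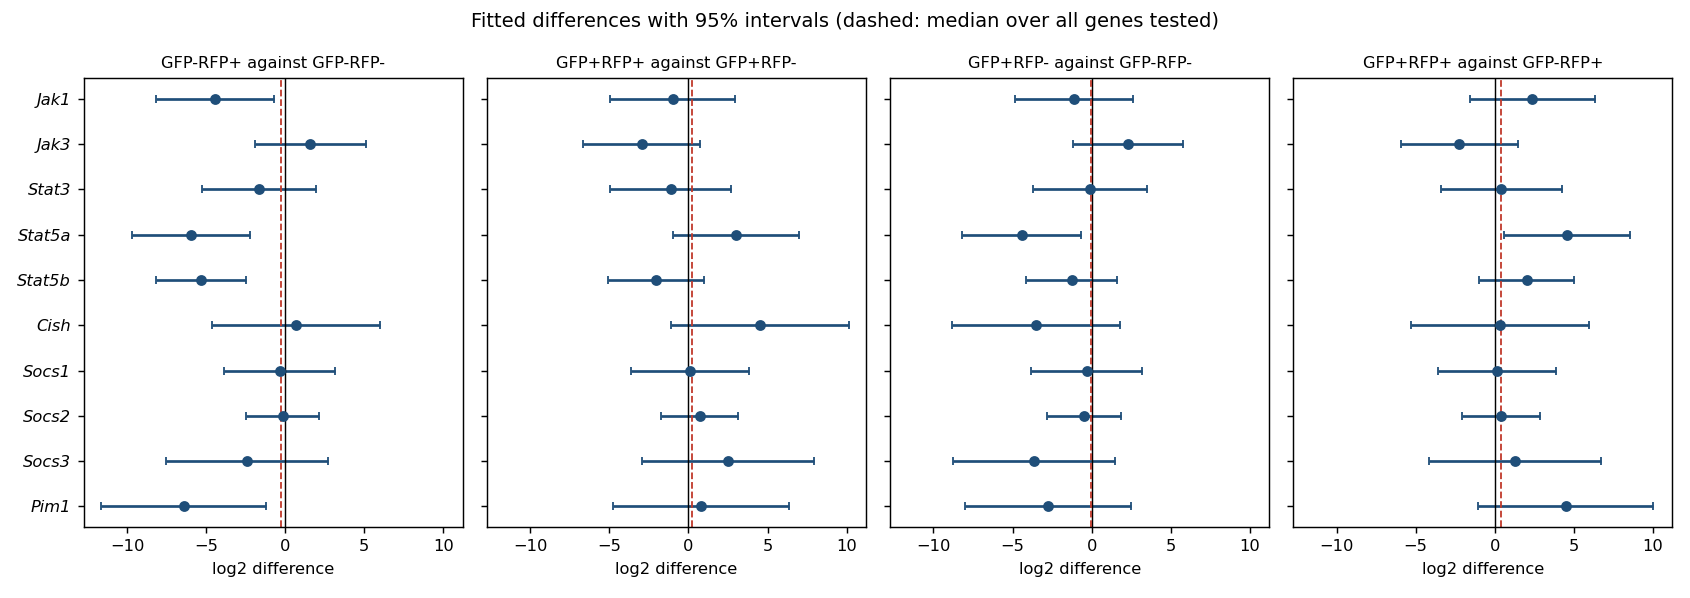
Fitted log2 differences of the 10 genes with 95% intervals in 4 comparisons; the dashed line is the median over all tested genes. The intervals of Jak1, Stat5a, Stat5b and Pim1 lie below 0 in GFP-RFP+ against GFP-RFP- cells, and no gene had an adjusted p under 0.05 in any panel; under other scalings 6 in place of 8 of the genes lie below 0 in that panel.

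JAK1, a kinase, pairs with many cytokine receptors, and its probe (mm9, chr4:100825094-100825153, minus strand) was well above background on 16 of 19 arrays. Jak1 read -1.43, -2.50, -10.14 and -0.06 in GFP+RFP+ cells and -9.83, -8.72, -2.21, -7.55 and -1.18 in GFP-RFP+ cells. In RFP- cells, Jak1 read -1.84, -2.08, -2.79, -4.29 and -1.66 with GFP and -0.95, -1.36, -1.27, -2.42 and -1.21 without it. The arrays of each group are given in replicate order. All GFP-RFP- arrays lay between -2.42 and -0.95, while GFP-RFP+ arrays split between 2 values near the GFP-RFP- range and 3 far below it, and the groups overlapped. The difference was -4.45 ± 1.77 (SE), with a 95% interval of -8.18 to -0.73 and an adjusted p of 0.159. In GFP+RFP+ cells 1 array, replicate 4, was far below the other 3. The 95% interval of its difference from GFP+RFP- cells ran from -4.96 to 2.95 (adjusted p = 0.821).

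Jak3, the kinase bound to the common gamma chain, has 2 probes. The one with the higher signal, at chr8:74214085-74214144 (mm9, plus strand), was detected on 15 arrays. Jak3 read -7.96, -8.60, -6.44 and -8.80 in GFP+RFP+ cells and -2.98, -6.66, -6.87, -8.49 and -3.53 in GFP-RFP+ cells. In RFP- cells, Jak3 read -3.33, -0.80, -8.56, -9.63 and -2.60 with GFP and -7.91, -8.78, -2.62, -8.46 and -8.63 without it. All GFP+RFP+ arrays and 4 of 5 GFP-RFP- arrays were low, while GFP-RFP+ and GFP+RFP- cells held both high and low arrays, and all groups overlapped. GFP+RFP+ cells had no array above -6.44 and were detected on 1 of 4 arrays, against 4 of 5 for GFP+RFP- cells, a difference of -2.97 ± 1.76 (adjusted p = 0.389). A second Jak3 probe, 3284 bases away, correlated with the first at r = 0.23 over 19 arrays, and both were above background on 11 arrays, only the first on 4 and only the second on 2. Its GFP+RFP+ against GFP+RFP- difference was -0.08 ± 2.30 (adjusted p = 0.991).

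Probe sequences are printed for Jak3 (the second probe), Socs2 (the third of its probes) and Pim1. Of these, only the Pim1 probe gave the values read out for its gene. The values read out for Jak3 and Socs2 came from their other, higher-signal probes. Whether the printed sequences lie in coding sequence was not examined. They are given 5′ to 3′ as in the array files, in lower case, on mm9 and 60 bases each.
Jak3, chr8:74210801-74210860, plus strand: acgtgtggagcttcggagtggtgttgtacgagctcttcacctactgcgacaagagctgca
Socs2, chr10:94875468-94875527, minus strand: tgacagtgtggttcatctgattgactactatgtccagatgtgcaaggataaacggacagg
Pim1, chr17:29630740-29630799, plus strand: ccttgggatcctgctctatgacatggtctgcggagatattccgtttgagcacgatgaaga
Their GC content was 55% for Jak3, 45% for Socs2 and 50% for Pim1.

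STAT3 is the main STAT of IL-6 and IL-10 signalling. Its higher-signal probe was detected on 17 arrays. Stat3 read -1.88, -8.53, -4.66 and -5.12 in GFP+RFP+ cells and -9.91, -3.90, -2.15, -2.86 and -8.48 in GFP-RFP+ cells. In RFP- cells, Stat3 read -1.68, -3.49, -4.30, -8.75 and -1.42 with GFP and -3.95, -3.64, -0.91, -6.05 and -4.47 without it. Every group spanned at least 5 log2 units, and all groups overlapped. Stat3 differed by -1.66 ± 1.71 in GFP-RFP+ against GFP-RFP- cells (adjusted p = 0.593) and by -1.12 ± 1.81 in GFP+RFP+ against GFP+RFP- cells (adjusted p = 0.787). A second Stat3 probe, 10348 bases away and printed on the array in 10 copies, was above background on 10 arrays, always together with the first, and correlated with it at r = 0.29.

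Stat5a and Stat5b encode the STATs that carry the IL-2 signal, and they lie next to each other on chromosome 11 on opposite strands. The Stat5a probe (mm9, chr11:100746373-100746432, plus strand) was well above background on 7 of 19 arrays. Stat5a read -9.34, -1.51, -10.80 and -3.18 in GFP+RFP+ cells and -9.95, -10.25, -11.10, -11.32 and -11.15 in GFP-RFP+ cells. In RFP- cells, Stat5a read -10.66, -11.52, -9.72, -9.45 and -4.77 with GFP and -4.48, -10.23, -3.78, -2.68 and -2.79 without it. No GFP-RFP+ array was above background and all 5 lay between -11.32 and -9.95, while 4 of 5 GFP-RFP- arrays lay between -4.48 and -2.68 and replicate 2 was as low as the GFP-RFP+ arrays, so the groups overlapped. Where a whole group was not well above background, a floored fold was computed, the bright group's mean over the dim group's floored mean. For the floored mean, each dim array entered at the higher of its own signal and its lowest signal among probes well above background. Bright arrays entered at their measured signal even where not well above background, so the floored fold is no strict lower limit. For Stat5a the mean of the GFP-RFP- arrays was 18.1-fold above the floored mean of the GFP-RFP+ arrays, a difference that was not called. Measured means were -10.76 ± 0.61 in GFP-RFP+ cells and -4.79 ± 3.13 in GFP-RFP- cells (SD, n = 5 each). The fitted difference was -5.96 ± 1.78, with an adjusted p of 0.082. With 1 array left out, the floored fold was highest without GFP-RFP- replicate 2 (46.4-fold) and lowest without GFP-RFP- replicate 4 (12.5-fold). A gene was kept for testing when a probe was well above background on 4 arrays or more, and Stat5a was kept only through the GFP-RFP- cells, where it was high, since 3 of its 7 arrays lay elsewhere. With no such filter the adjusted p was 0.102. In GFP+RFP+ cells 2 of 4 arrays were above background. The Stat5a mean of all 4 was 6.78-fold above the floored mean of GFP-RFP+ cells, a difference not called (fitted 4.55 ± 1.88, adjusted p = 0.889). That floored fold rests on few arrays: it was 14.0-fold, 2.29-fold, 19.6-fold and 3.37-fold without GFP+RFP+ replicates 1, 3, 4 and 5 in turn. Within slide 2, which held only replicate 4 of GFP+RFP+ cells and replicate 2 of GFP-RFP+ cells, the difference was -0.55.

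Among GFP+ cells the Stat5a values lay the other way round. In GFP+RFP+ cells it averaged -6.21 ± 4.55 (SD, n = 4) and in GFP+RFP- cells -9.22 ± 2.62 (SD, n = 5), a difference of 3.02 ± 1.88 with an adjusted p of 0.413. The difference between both Foxp3 reporter differences was 8.98 ± 2.59, with a 95% interval of 3.52 to 14.44, rank 74 of 20595 genes by p and an adjusted p of 0.814, and it rests on GFP-RFP+ signals that were not well above background. GFP+RFP- cells were also low against GFP-RFP- cells, with 1 of 5 arrays above background against 4 of 5 and a difference of -4.43 ± 1.78 (adjusted p = 0.918).

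The higher-signal Stat5b probe (mm9, chr11:100642187-100642246, minus strand) was detected on 14 arrays. Stat5b read -9.11, -10.31, -5.67 and -1.64 in GFP+RFP+ cells and -9.80, -10.10, -5.74, -9.50 and -8.33 in GFP-RFP+ cells. In RFP- cells, Stat5b read -5.54, -3.71, -6.04, -5.17 and -2.62 with GFP and -3.25, -3.65, -2.10, -2.15 and -5.58 without it. All 5 GFP-RFP+ arrays were below all 5 GFP-RFP- arrays, a separation in that direction that 2.59% of all tested genes showed. Detection of the probe was 2 of 5 arrays in GFP-RFP+ cells, against 5 of 5 in GFP-RFP- cells. The 95% interval of the difference ran from -8.20 to -2.50. In GFP+RFP+ cells the arrays spread from -10.31 to -1.64 around a mean of -6.68 ± 3.89 (SD, n = 4), against -4.62 ± 1.41 in GFP+RFP- cells (SD, n = 5), a difference of -2.07 ± 1.43 (adjusted p = 0.467). GFP+RFP- and GFP-RFP- cells differed by -1.27 ± 1.35 (adjusted p = 0.9997).

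A second Stat5b probe lies 142 bases from the first. Stat5b read -9.21, -10.56, -4.83 and -2.82 in GFP+RFP+ cells and -9.89, -10.13, -4.50, -11.23 and -11.00 in GFP-RFP+ cells. In RFP- cells, Stat5b read -8.17, -4.21, -10.76, -11.14 and -5.71 with GFP and -9.19, -4.53, -3.55, -2.71 and -11.92 without it. It was above background on 9 arrays, each of them among the 14 of the first probe, and correlated with it at r = 0.72 over 19 arrays. Its groups overlapped, and GFP-RFP+ differed from GFP-RFP- cells by -2.97 ± 2.03 (adjusted p = 0.408 among 28065 probes). With the mean of both probes the Stat5b difference was -4.16 (adjusted p = 0.150).

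The Stat5b call turned on the setting. It had an adjusted p of 0.0211 without GFP-RFP+ replicate 3, the brightest array of that group, 0.0407 without GFP+RFP+ replicate 3 and 0.021 without GFP+RFP+ replicate 5, and between 0.0502 and 0.124 without any other single array. Stat5b was also called with the percentile over all probes (adjusted p = 0.0496), with the median (0.0386), with normexp (0.0264) and with only the groups compared in the fit (0.0256). Stat5a was called with quantile normalization (adjusted p = 0.0428) and in the authors' series table (0.0364). With slide as a block, Stat5b differed by -5.50 (adjusted p = 0.0366) and Stat5a by -6.67 (adjusted p = 0.0364). Stat5a was kept for testing only through the GFP-RFP- cells, where it was high, so its calls are no independent evidence of the difference. Each of the 3 slides held all 4 populations. Within slides 1, 2 and 3 the differences were -5.09, -7.20 and -3.33 for Stat5b and -6.40, -3.79 and -8.44 for Stat5a. Slide 2 held a single GFP-RFP+ array (replicate 2) and slide 3 a single GFP-RFP- array (replicate 5), so the differences there rest on single arrays. Both genes were lower in GFP-RFP+ than in GFP-RFP- cells in every setting run.

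Most of these settings also called more of all tested genes in the same comparison than the 1.7% as scaled. The shares were 19.5% with the percentile over all probes, 10.5% with the median, 22.9% with normexp, 16.8% with quantile normalization, 17.4% in the authors' series table and 5.98% with slide as a block. With only the groups compared the share was 1.82%, and without GFP-RFP+ replicate 3, GFP+RFP+ replicate 3 or GFP+RFP+ replicate 5 it was 5.57%, 1.71% or 2.4%. Genes called lower made up 1.28% to 4.1% of all genes over these 10 settings. With 1 or 2 of 10 members called, the count does not set the members apart from all genes.

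**Figure D3:**
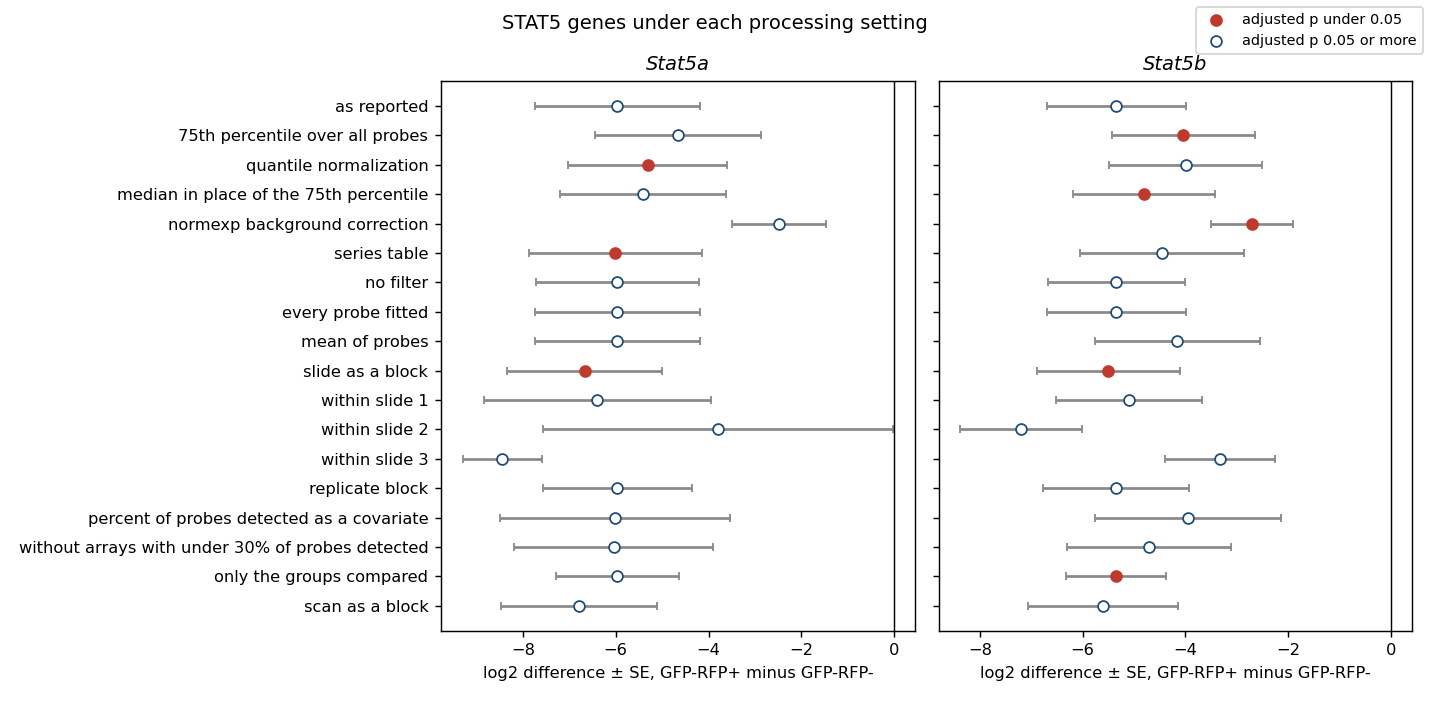
Log2 difference ± SE of Stat5a and Stat5b in GFP-RFP+ minus GFP-RFP- cells under each processing setting; filled points have an adjusted p under 0.05. Every point is below 0, from -8.44 to -2.48 for Stat5a and from -7.20 to -2.70 for Stat5b.

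Of 5 B cell markers tested in the same comparison, 1 was called. It was Cd79b, a chain of the B cell antigen receptor, which averaged -7.61 ± 3.81 in GFP-RFP+ cells and -1.27 ± 1.18 in GFP-RFP- cells (SD, n = 5 each), a difference of -6.34 ± 1.51 (adjusted p = 0.0429). No other was called, and the differences were above 0 for Blnk (2.10, adjusted p = 0.179) and Pax5 (0.70, adjusted p = 0.434) and below 0 for Cd79a (-1.26, adjusted p = 0.734). Between 1 and 4 of the 6 B cell markers were above background on GFP-RFP+ arrays and between 2 and 5 on GFP-RFP- arrays, and their summed signal ran from 0.86% to 52.9% and from 11.1% to 93.9% of the 75th percentile. Of the 7 myeloid and dendritic cell markers, between 2 and 5 were above background on GFP-RFP+ arrays and between 3 and 5 on GFP-RFP- arrays, with summed signals of 809% to 2386% and of 604% to 807%, and Itgax was above background on no array. The part of these cells in the Stat5a and Stat5b values was not tested.

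The inhibitors act by blocking receptor sites or JAK activity. CISH competes with STAT5 for the receptor, and its probe (mm9, chr9:107204196-107204255, plus strand) was above background on 9 arrays. Cish read -9.17, -1.63, -10.71 and -1.21 in GFP+RFP+ cells and -9.84, -0.29, -1.71, -7.23 and -10.99 in GFP-RFP+ cells. In RFP- cells, Cish read -10.76, -11.35, -10.90, -11.03 and -6.88 with GFP and -11.02, -3.16, -1.60, -5.70 and -11.85 without it. Every group spanned a wide range, and GFP+RFP- cells had 4 of 5 arrays between -11.35 and -10.76, with replicate 5 at -6.88. GFP+RFP+ differed from GFP+RFP- cells by 4.50 ± 2.67 (adjusted p = 0.389) with 2 of 4 against 1 of 5 arrays above background. GFP-RFP+ and GFP-RFP- cells, each with 3 of 5 arrays above background, differed by 0.65 ± 2.52 (adjusted p = 0.906), with a 95% interval of -4.66 to 5.96.

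The STAT motif TTCNNNGAA, which reads the same on both strands, was searched in the RefSeq promoter windows of 9 members (GRCm38.p6, 250 bases before to 50 after the start, 12 windows). It was found for Cish and Socs3, and for 2726 of 32851 windows of all genes (8.3%). Matches are in capitals in the stretches printed here, which run 5′ to 3′ along the gene, and nothing about STAT binding follows from them.
Cish, GRCm38.p6 chr9:107296409-107296678, plus strand: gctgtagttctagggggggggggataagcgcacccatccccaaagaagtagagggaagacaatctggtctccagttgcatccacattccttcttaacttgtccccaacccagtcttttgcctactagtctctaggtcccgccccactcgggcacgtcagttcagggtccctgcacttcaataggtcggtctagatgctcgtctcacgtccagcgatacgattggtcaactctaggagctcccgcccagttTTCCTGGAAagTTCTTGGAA
Socs3, GRCm38.p6 chr11:117969367-117969616, minus strand: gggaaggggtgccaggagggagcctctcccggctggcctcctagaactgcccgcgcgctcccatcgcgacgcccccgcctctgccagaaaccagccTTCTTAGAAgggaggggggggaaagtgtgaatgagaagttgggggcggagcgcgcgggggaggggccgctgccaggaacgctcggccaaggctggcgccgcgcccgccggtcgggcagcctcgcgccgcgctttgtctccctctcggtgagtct
The Cish window held 2 matches, which begin at bases 1 and 12 of the transcript, and 0.457% of all windows held 2 or more. The Socs3 match begins at base -154 relative to the start.

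SOCS1 inhibits JAK kinases directly. Its probe (mm9, chr16:10783951-10784010, minus strand) was above background on 11 arrays. Socs1 read -9.32, -5.22, -10.69 and -5.34 in GFP+RFP+ cells and -8.53, -10.00, -2.82, -11.32 and -6.18 in GFP-RFP+ cells. In RFP- cells, Socs1 read -5.58, -5.69, -8.99, -10.18 and -8.16 with GFP and -11.27, -6.06, -3.97, -7.41 and -8.32 without it. All groups overlapped, with means between -7.77 and -7.40. Its differences in the 4 pairs of populations lay between -0.37 and 0.13, with standard errors of 1.67 to 1.77.

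SOCS2 dampens growth hormone signalling and is itself a STAT5 target. The probe with the highest signal (mm9, chr10:94875066-94875125, minus strand, printed in 10 copies) was above background on 15 arrays. Socs2 read -6.51, -6.75, -6.48 and -9.66 in GFP+RFP+ cells and -7.19, -6.02, -8.01, -9.36 and -8.08 in GFP-RFP+ cells. In RFP- cells, Socs2 read -8.70, -8.83, -6.41, -7.79 and -8.53 with GFP and -9.05, -2.68, -8.94, -9.33 and -7.83 without it. All arrays lay between -9.66 and -6.02 apart from GFP-RFP- replicate 2, and GFP-RFP+ differed from GFP-RFP- cells by -0.17 ± 1.10 (adjusted p = 0.947). Of the other 3 Socs2 probes, the one printed above was above background on 4 arrays, another on 2 and the last on 0, and the last, 27061 bases from the first, matched no gene in the RefSeq table by its accession. The printed Socs2 probe was seen on 2 GFP+RFP+ arrays, 1 GFP-RFP+ array, no GFP+RFP- array and 1 GFP-RFP- array. This is the smallest total for which a probe was kept, so without any of these arrays it would have been dropped. No fold is given for it.

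SOCS3 binds receptors of the IL-6 family. Its probe (mm9, chr11:117827480-117827539, minus strand) was above background on 16 arrays. Socs3 read -0.56, -1.61, -7.21 and 0.42 in GFP+RFP+ cells and 1.36, -9.98, -1.07, -9.05 and 1.08 in GFP-RFP+ cells. In RFP- cells, Socs3 read -3.15, -8.06, -0.17, -11.09 and -1.20 with GFP and -1.86, -1.12, -1.62, -0.53 and -0.36 without it. The 5 GFP-RFP- arrays lay within -1.86 to -0.36, while each other group held both high arrays and arrays below -7. GFP-RFP+ differed from GFP-RFP- cells by -2.43 ± 2.43 (adjusted p = 0.581), with 3 of 5 against 5 of 5 arrays above background. GFP+RFP+ against GFP+RFP- cells gave 2.50 ± 2.58 (adjusted p = 0.645).

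Pim1 is a STAT5 target that encodes a kinase and supports cell survival. Its probe, printed above, was above background on 14 arrays. Pim1 read 1.87, -0.44, -10.90 and -2.51 in GFP+RFP+ cells and -3.34, -10.23, -1.84, -11.41 and -10.52 in GFP-RFP+ cells. In RFP- cells, Pim1 read -0.75, -2.34, -3.85, -11.28 and -0.75 with GFP and 0.09, -3.09, -0.23, -0.80 and -1.20 without it. GFP-RFP- arrays lay between -3.09 and 0.09, and 3 of 5 GFP-RFP+ arrays were below -10 with the other 2 at -3.34 and -1.84, so the groups overlapped. The difference between GFP-RFP+ and GFP-RFP- cells was -6.42 ± 2.48, with a 95% interval of -11.66 to -1.19 and an adjusted p of 0.149. Low arrays also occurred in GFP+RFP+ cells (replicate 4) and GFP+RFP- cells (replicate 4), where the difference was 0.80 ± 2.63 (adjusted p = 0.908).

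**Figure D4:**
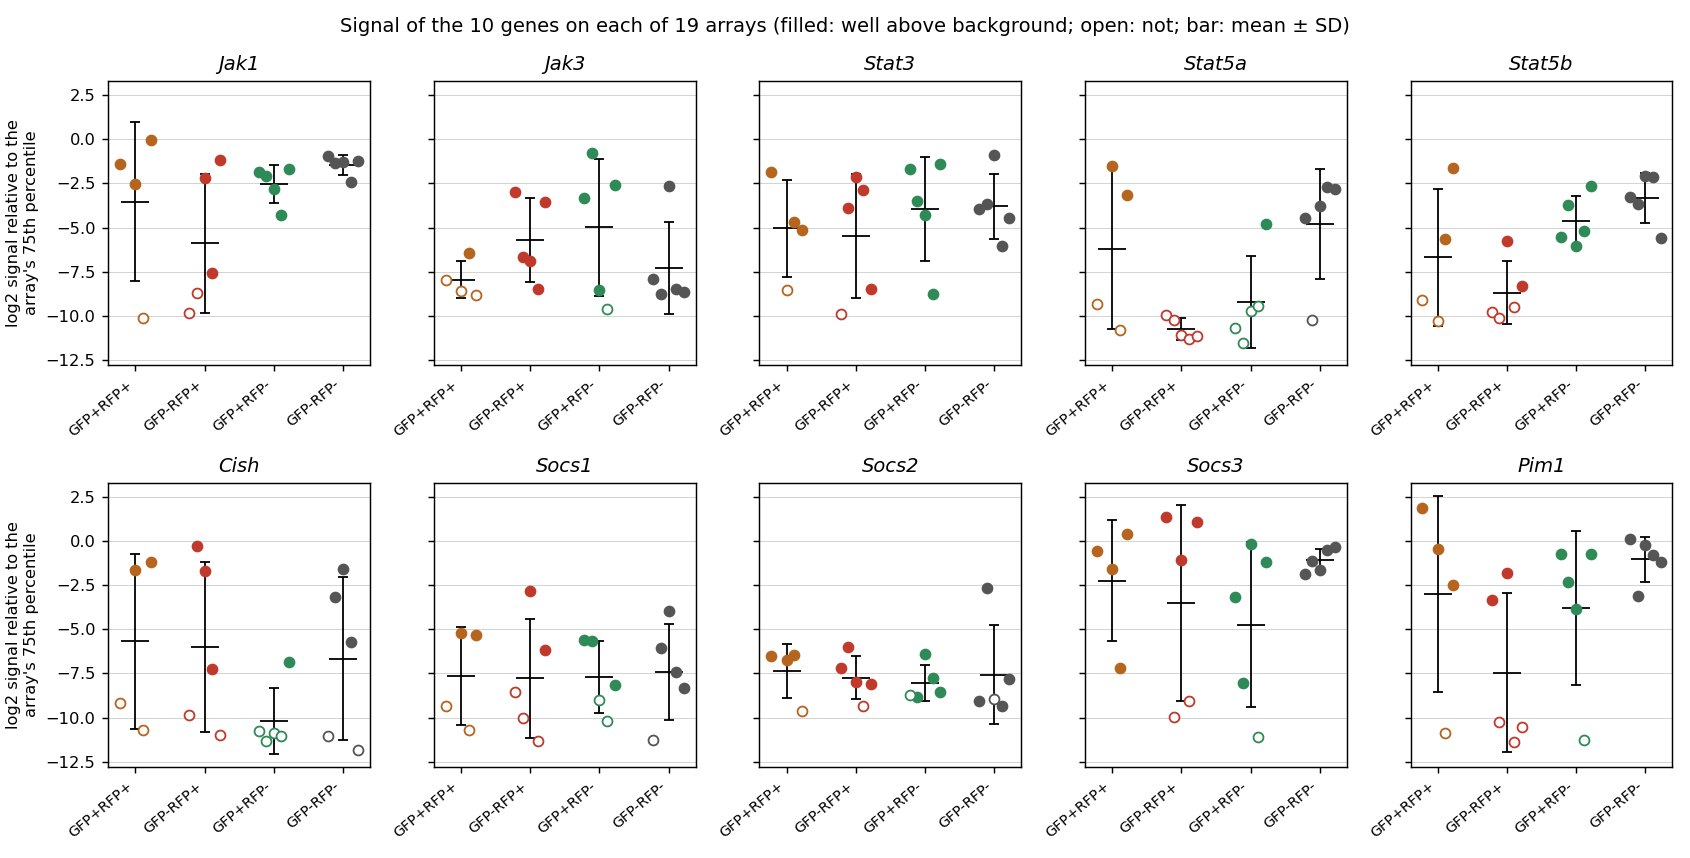
Log2 signal of each gene relative to the array's 75th percentile, per array and population; filled points are well above background, open points are not, and black bars give mean ± SD. In Stat5a all GFP-RFP+ points are open and at or below -9.95, and in Stat5b every GFP-RFP+ point is below every GFP-RFP- point.

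Of the other pathway genes, none passed the test in any of these pairs of populations. For the counts that follow, 57.1% of all tested genes lay below 0 between GFP-RFP+ and GFP-RFP- cells (median -0.29), with 22.6% at an unadjusted p under 0.05, and 44.1% lay below 0 between GFP+RFP+ and GFP+RFP- cells (median 0.22), with 17.4% at that p. Between GFP-RFP+ and GFP-RFP- cells, 4 of 5 tested JAK and STAT genes outside the 10 lay below 0 (median -3.73, 3 to 5 of them under other scalings), with 1 at an unadjusted p under 0.05. Tyk2, a JAK of interferon and IL-12 receptors, was detected on 0 of 4 GFP+RFP+ arrays and 4 of 5 GFP+RFP- arrays (adjusted p = 0.136), while among GFP- cells it was seen on 1 RFP+ and all 5 RFP- arrays (adjusted p = 0.106). Stat6, the STAT of IL-4, differed by -4.57 ± 2.13 in GFP+RFP+ against GFP+RFP- cells (adjusted p = 0.279).

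All 12 other SOCS genes and negative regulators tested lay below 0 between GFP-RFP+ and GFP-RFP- cells (11 or 12 under other scalings). Their median was -2.64, with 4 at an unadjusted p under 0.05, and 11 of 12 were below 0 in GFP+RFP+ against GFP+RFP- cells (median -1.36, 9 to 11 under other scalings). Ptpn11, which encodes the phosphatase SHP-2, differed by -5.96 ± 1.90 in GFP-RFP+ against GFP-RFP- cells (adjusted p = 0.0958). Pias4, a SUMO ligase that binds STATs, differed by -6.91 ± 2.19 in GFP+RFP+ against GFP+RFP- cells (adjusted p = 0.139). The 13 receptor chains were split, with 7 above and 6 below 0 in the same comparison of GFP- cells (3 to 5 below under other scalings).

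Il6st, the shared signalling chain of IL-6 receptors, averaged -9.68 ± 2.35 in GFP-RFP+ cells and -2.31 ± 0.89 in GFP-RFP- cells (SD, n = 5 each), a difference of -7.37 ± 1.83 (adjusted p = 0.0505). The lowest signals among probes well above background ran from -9.90 to -7.81 on GFP-RFP+ arrays. The GFP-RFP+ mean of Il6st thus lay near background, and the size of its difference is not exact. Il4ra, the IL-4 receptor chain, differed by 1.61 ± 0.45 in GFP+RFP+ against GFP+RFP- cells (adjusted p = 0.119). Of 13 other STAT5 targets, 8 were below 0 in GFP-RFP+ against GFP-RFP- cells (median -0.65, 6 to 9 below under other scalings). Among GFP+ cells, 10 of them were below 0 between RFP+ and RFP- cells (median -0.30, 6 to 10 below under those scalings). Pim2, a relative of Pim1, was not well above background on any GFP-RFP+ array and was so on 4 of the GFP-RFP- ones (adjusted p = 0.135). With 2 GFP+RFP- arrays as the only others, it too was kept for testing only through the GFP-RFP- cells. Ccnd2, the cyclin D2 gene, differed by -6.39 ± 2.28 in GFP+RFP+ against GFP+RFP- cells (adjusted p = 0.173).

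Patterns over the 19 arrays were compared for the 3 members detected on at least 16 arrays and 4235 genes with a usual symbol detected as often. Jak1 was most like Kin (r = 0.93) and Cdc42ep2 (r = 0.91). Socs3 was most like Snf8 (r = 0.85) and Nup88 (r = 0.81), and Stat3 most like Phc3 (r = 0.82) and Idh3b (r = 0.80). All points of such a correlation share the array's depth of detection.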

How the data were processed

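Single-colour arrays of the 19 samples were used. The scanner files deposited by the authors hold linear intensity, background-subtracted by version 10.7.3.1 of Agilent Feature Extraction, per the headers, and the deposited value table of the series holds log2 values with a normalization not given in the sources used here. Per the labels, cDNA was amplified by a global PCR before Cy3 labelling, so signal is not proportional to RNA input in a known way. The number of arrays limits the precision.

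The log2 processed signal was set relative to each array's 75th percentile over probes well above background on all arrays. Of 55681 probes, 28065 were detected on 4 arrays or more and kept, and the probe with the highest mean stood for each of 20595 genes. Spots marked as outliers were left out, and repeated spots were averaged. One model of all 4 groups was fitted with limma 3.58.1 in R 4.3.3 with version 1.17.8 of data.table. The code was also run on simulated data, with residuals permuted over arrays gene by gene. This removes shifts shared by an array, so the run does not show the error rate on these arrays. Figures used matplotlib 3.10.9 and pandas 2.3.3 in Python 3.11.15. Members and lists were chosen with earlier results of these data known. Genes named beside the members are, per list, those called, otherwise up to 2 with the smallest p, and up to 2 per member by likeness. Groups came from the sample titles. Alternatives covered scaling, background correction, filters, probe choice, slide, scan, replicate number, detection and single arrays.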

Additional observations from a re-analysis of the deposited data

Results flagged for a closer look

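Within each group of 4 or 5 arrays, the highest or lowest array of a member was compared with the gap to its neighbour by Dixon's criterion. An array stood apart in 6 of 40 groups. The criterion's nominal rate of about 1 in 20 assumes normal, independent values. Many member values lie near background and all members share the same arrays, so the count is not read against that rate.

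Stat5a read -10.23 on GFP-RFP- replicate 2, with the next lowest array of that group at -4.48. Jak1 read -2.42 on GFP-RFP- replicate 4, with the next at -1.36. Jak3 read -2.62 on GFP-RFP- replicate 3, above a next highest of -7.91. Socs2 read -2.68 on GFP-RFP- replicate 2, above a next highest of -7.83, and -9.66 on GFP+RFP+ replicate 5, below a next lowest of -6.75. Cish read -6.88 on GFP+RFP- replicate 5, above a next highest of -10.76. GFP-RFP- replicate 2 thus stood apart both for Stat5a, where it was low, and for Socs2, where it was high. Without it the Stat5a difference in GFP-RFP+ against GFP-RFP- cells was -7.32 (adjusted p = 0.0609).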

How the results depend on the processing

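Comparisons are named here as RFP without GFP (GFP-RFP+ against GFP-RFP-), RFP with GFP (GFP+RFP+ against GFP+RFP-), GFP without RFP (GFP+RFP- against GFP-RFP-), GFP with RFP (GFP+RFP+ against GFP-RFP+) and the interaction. No member was called as reported, and only Stat5a and Stat5b, in RFP without GFP, were called under any setting. The Stat5a calls are no independent evidence, since it was kept for testing only through the GFP-RFP- cells.

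With the 75th percentile over all probes, 1 member was called in RFP without GFP, called genes numbered 4016 in RFP without GFP, 10 in RFP with GFP and 11 in GFP with RFP and the called difference was -4.04 for Stat5b. Values of opposite sign arose in RFP without GFP for Socs1 (0.94) and Socs2 (1.14), in GFP without RFP for Stat3 (0.16), in GFP with RFP for Stat3 (-0.042), Cish (-0.12), Socs1 (-0.33) and Socs2 (-0.072), in the interaction for Stat3 (-0.21) and Socs1 (-0.30). With quantile normalization, 1 member was called in RFP without GFP, called genes numbered 3466 in RFP without GFP, 25 in RFP with GFP and 2 in GFP with RFP and the called difference was -5.31 for Stat5a. Opposite signs arose in RFP without GFP for Socs1 (0.21) and Socs2 (1.14), in GFP without RFP for Stat3 (0.44), in GFP with RFP for Cish (-0.36), Socs1 (-0.18) and Socs2 (-0.19), in the interaction for Socs2 (-0.080). With the median as scale, 1 member was called in RFP without GFP, called genes numbered 2163 in RFP without GFP, 16 in RFP with GFP and 5 in GFP with RFP and the called difference was -4.81 for Stat5b. Signs turned in RFP without GFP for Socs1 (0.17) and Socs2 (0.37), in RFP with GFP for Socs1 (-0.072), in GFP without RFP for Stat3 (0.13), in GFP with RFP for Stat3 (-0.019), Cish (-0.099), Socs1 (-0.30) and Socs2 (-0.049), in the interaction for Stat3 (-0.15) and Socs1 (-0.25). With normexp, 1 member was called in RFP without GFP, called genes numbered 4706 in RFP without GFP, 4868 in RFP with GFP, 5 in GFP without RFP and 8 in GFP with RFP and the called difference was -2.70 for Stat5b. There the sign differed in RFP without GFP for Socs1 (0.75) and Socs2 (0.93), in RFP with GFP for Jak3 (0.32), in GFP without RFP for Stat3 (0.20), in GFP with RFP for Socs1 (-0.070), in the interaction for Stat3 (-0.19). In the authors' series table, 1 member was called in RFP without GFP, called genes numbered 3592 in RFP without GFP, 22 in RFP with GFP and 2 in GFP with RFP and the called difference was -6.01 for Stat5a. Signs changed in RFP without GFP for Socs1 (0.17) and Socs2 (1.43), in GFP without RFP for Stat3 (0.32) and Socs2 (0.13), in GFP with RFP for Cish (-0.52), Socs1 (-0.13) and Socs2 (-0.18), in the interaction for Socs2 (-0.31).

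With no filter, called genes numbered 106 in RFP with GFP. With only probes above background on all arrays, which held no member, called genes numbered 596 in RFP without GFP, 748 in RFP with GFP, 0 in GFP without RFP, 2 in GFP with RFP and 0 in the interaction. With every probe fitted, called genes numbered 4 in GFP without RFP and 7 in GFP with RFP. With the mean of a gene's probes, called genes numbered 6 in GFP with RFP. Signs changed in RFP without GFP for Socs2 (0.28), in RFP with GFP for Stat3 (0.097). With slide as a block, 2 members were called in RFP without GFP, called genes numbered 1231 in RFP without GFP, 127 in RFP with GFP, 1 in GFP without RFP and 2 in GFP with RFP and the called difference was -6.67 for Stat5a and -5.50 for Stat5b. Values of opposite sign arose in RFP without GFP for Socs2 (0.23), in RFP with GFP for Socs1 (-0.093). Within slide 1, called genes numbered 87 in RFP without GFP, 0 in RFP with GFP, 0 in GFP without RFP, 0 in GFP with RFP and 0 in the interaction. Opposite signs arose in RFP without GFP for Socs1 (1.94), Socs2 (1.39) and Socs3 (1.89), in RFP with GFP for Jak1 (0.35), in GFP without RFP for Jak3 (-0.68), Socs1 (0.33), Socs2 (1.44) and Socs3 (0.082), in GFP with RFP for Stat5b (-1.94), Socs1 (-1.60) and Socs3 (-1.23), in the interaction for Socs1 (-1.93), Socs2 (-0.47) and Socs3 (-1.31). Within slide 2, which held only replicate 2 of GFP-RFP+ cells and replicate 4 of GFP+RFP+ cells, effect sizes alone are given. Signs turned in RFP without GFP for Stat3 (0.94), in RFP with GFP for Stat3 (1.46), Stat5a (-0.32), Socs1 (-2.76) and Pim1 (-4.09), in GFP with RFP for Jak1 (-1.42), Jak3 (0.21), Stat3 (-0.76), Stat5a (-0.55), Cish (-10.41), Socs1 (-0.69), Socs2 (-0.46) and Pim1 (-0.67), in the interaction for Jak1 (-0.13) and Cish (-3.65). Within slide 3, which held only replicate 5 of GFP+RFP+, GFP+RFP- and GFP-RFP- cells, effect sizes alone are given. There the sign differed in RFP with GFP for Jak1 (1.60), Stat5b (0.98), Socs2 (-1.13) and Pim1 (-1.76), in GFP without RFP for Stat3 (3.05), Stat5b (2.96), Cish (4.97), Socs1 (0.16) and Pim1 (0.45), in GFP with RFP for Socs2 (-0.93), in the interaction for Stat3 (-2.50) and Socs2 (-0.24).

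With the replicate block, called genes numbered 199 in RFP without GFP and 8 in RFP with GFP. With percent detected as a covariate, called genes numbered 5 in RFP without GFP, 8 in RFP with GFP, 1 in GFP without RFP and 3 in GFP with RFP. Opposite signs arose in RFP without GFP for Stat3 (0.79), Socs1 (1.94) and Socs2 (0.23), in GFP without RFP for Stat3 (0.70) and Socs1 (0.47), in GFP with RFP for Stat3 (-0.17), Cish (-0.15) and Socs1 (-0.42), in the interaction for Stat3 (-0.87) and Socs1 (-0.89). Without the 3 arrays with under 30% of probes detected, called genes numbered 27 in RFP without GFP, 9 in GFP with RFP and 4 in the interaction. Signs turned in RFP without GFP for Socs1 (1.07) and Socs2 (0.19), in RFP with GFP for Pim1 (-0.82), in GFP with RFP for Jak1 (-0.20), Stat3 (-1.26), Cish (-0.19), Socs1 (-0.75) and Socs2 (-0.26), in the interaction for Stat3 (-1.14) and Socs1 (-0.43). With only the groups compared in the fit, 1 member was called in RFP without GFP, called genes numbered 74 in RFP with GFP and 3 in GFP with RFP and the called difference was -5.35 for Stat5b. With scan as a block, added after seeing the data, called genes numbered 6 in RFP with GFP and 1 in GFP without RFP. Signs changed in RFP without GFP for Socs2 (0.10), in RFP with GFP for Pim1 (-0.56), in GFP without RFP for Stat3 (0.16), in GFP with RFP for Stat3 (-0.77), in the interaction for Stat3 (-0.92).

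Leaving out 1 array at a time, called members ranged from 0 to 1 in RFP without GFP. Called genes ranged from 85 (without GFP-RFP- replicate 1) to 1161 (without GFP-RFP+ replicate 4) in RFP without GFP, 2 (without GFP+RFP+ replicate 4) to 298 (without GFP+RFP- replicate 4) in RFP with GFP, 1 (without GFP-RFP- replicate 1) to 12 (without GFP-RFP- replicate 4) in GFP without RFP, 1 (without GFP-RFP- replicate 1) to 20 (without GFP-RFP+ replicate 3) in GFP with RFP and 2 (without GFP-RFP- replicate 1) to 13 (without GFP-RFP+ replicate 3) in the interaction. In RFP without GFP, the range was -6.08 to -5.00 for Stat5b, -0.78 to 1.92 for Cish, -1.60 to 0.52 for Socs1 and -0.61 to 1.05 for Socs2. In RFP with GFP, the range was -2.16 to 1.20 for Jak1, -2.32 to 0.045 for Stat3, -0.73 to 1.09 for Socs1 and -1.07 to 3.44 for Pim1. In GFP without RFP, the range was -0.75 to 1.08 for Stat3, -1.28 to 0.54 for Socs1 and -0.93 to 0.74 for Socs2. In GFP with RFP, the range was -0.70 to 1.57 for Stat3, -1.16 to 2.01 for Cish, -0.76 to 1.37 for Socs1, -0.025 to 1.15 for Socs2 and -0.32 to 2.95 for Socs3. In the interaction, the range was -0.67 to 1.70 for Stat3, -0.44 to 1.68 for Socs1 and -0.35 to 1.64 for Socs2.

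In all, 110 of 840 member differences under other settings and 53 of 950 with 1 array left out had the opposite sign to the reported one, none of them called on either side. The same replicate numbers recur in the sample titles across populations, and the labels do not say whether a number marks 1 mouse. Of 27 pairs of same-numbered arrays, 0 correlated above 0.1 in their deviations from group means (median r = 0.014, against 0 for other pairs). A low correlation cannot show that the samples were unpaired, and the main fit used no pairing. The replicate block called no member. Causes of the changes in sign and in calls were not tested. Many of the members' values lie near background, where no exact fold can be given.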

Other observations

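Levels of the members over the 19 arrays went together to a modest degree. The highest correlations between members were between Socs3 and Pim1 (r = 0.64), Jak1 and Pim1 (r = 0.63), Jak1 and Stat5b (r = 0.54) and Stat5a and Pim1 (r = 0.54). The lowest correlations were between Socs2 and Stat5a (r = -0.31) and between Socs2 and Stat5b (r = -0.31), both weak. All 45 pairs share the detection of each array, and they are given as descriptions only.

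Of the 6 regulatory T cell markers, 4 lay above and 2 below 0 in GFP-RFP+ against GFP-RFP- cells (median 1.72), and 1 was called. It was Gpr83, a receptor gene (adjusted p = 0.0331), with 4 of 5 GFP-RFP+ arrays and 0 of 5 GFP-RFP- arrays above background. With 1 other array above background, Gpr83 was kept for testing only through the GFP-RFP+ cells, where it was high, so the call is no independent evidence of the difference. Among GFP+ cells it was seen on no RFP+ and 1 RFP- array (adjusted p = 0.707).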
